A study of Homo sapiens with 16 samples.

Results

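The genes described here are 10 chemokines and inflammatory cytokines: the CXC chemokines CXCL8, CXCL1, CXCL2 and CXCL3, the CC chemokines CCL2 and CCL3, and the cytokines TNF, IL1B, IL6 and LIF. They were chosen by name, not by any measured value, and their estimated reads were summed over all transcripts of each gene. They are 10 of 35354 genes in the quantified set, and all 10 were among the 17696 genes with enough reads to be tested. K562 is an established human cell line from a leukaemia, with erythroid features, here with a wild-type genotype. The cells received 25 nM of the phorbol ester PMA, which activates protein kinase C, a treatment given in the study to bring about a megakaryocyte-like state. Total RNA was sequenced after removal of ribosomal RNA before treatment (0 h), at 0.5, 1.5 and 3 h, and then at 6, 24, 48 and 72 h, with 2 libraries at each time point and 16 in all. The 0 h libraries served as the untreated reference for all later times, and the medium was changed after 24 and 48 h. Libraries of untreated cells at the later times were not analysed here, so time in PMA, time in culture and the changes of medium cannot be told apart. The labels number the libraries of a time point as replicates 1 and 2 and say nothing of separate cultures, so the p-values measure only the spread between these libraries, which may be technical.

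Chemokines are small secreted proteins that attract leukocytes by binding receptors with 7 membrane-spanning segments. CXC chemokines of this group bind CXCR1 and CXCR2 and mainly attract neutrophils, and CCL2 and CCL3 attract monocytes and lymphocytes through receptors such as CCR2 and CCR1. TNF and interleukin-1β are early inflammatory cytokines, and interleukin-6 and LIF signal through receptor complexes that share the subunit gp130, encoded by IL6ST. In monocytes and other cells many of these genes respond quickly to protein kinase C through the transcription factors NF-kB and AP-1, and their mRNAs often carry AU-rich elements, short 3′UTR sequences that make an mRNA short-lived.

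CXCL8, CXCL1, CXCL3 and CXCL2 lie in this order on chromosome 4, between bases 73740506 and 74099293. The upstream 250 bases of these 4 genes are shown because they moved together in the first hours, and those of IL1B because it moved late. Sequences come from RefSeq (GRCh38.p14), which held promoters for 8 of the 10 genes and none for CCL2 or LIF. Each is written 5′ to 3′ on the strand of the gene and ends at the base before the RefSeq start. Capitals mark the letters of 3 motifs searched on both strands: NF-kB (GG, a purine, any pair of bases, 2 pyrimidines, then CC), AP-1 (TGANTCA) and the TATA box (TATAAA). The regions are chr4:73740319-73740568 (+) for CXCL8, chr4:73869143-73869392 (+) for CXCL1, chr4:74099196-74099445 (-) for CXCL2, chr4:74038690-74038939 (-) for CXCL3 and chr2:112836780-112837029 (-) for IL1B.
CXCL8: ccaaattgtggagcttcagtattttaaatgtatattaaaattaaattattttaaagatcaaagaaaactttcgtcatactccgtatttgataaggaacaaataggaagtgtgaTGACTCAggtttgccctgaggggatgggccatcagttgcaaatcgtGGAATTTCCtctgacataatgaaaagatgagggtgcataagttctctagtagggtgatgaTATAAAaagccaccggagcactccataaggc
CXCL1: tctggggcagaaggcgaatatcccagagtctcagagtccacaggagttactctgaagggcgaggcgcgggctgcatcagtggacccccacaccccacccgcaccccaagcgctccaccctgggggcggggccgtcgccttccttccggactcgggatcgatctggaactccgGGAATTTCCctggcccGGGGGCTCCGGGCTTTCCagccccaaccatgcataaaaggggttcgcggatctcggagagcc
CXCL2: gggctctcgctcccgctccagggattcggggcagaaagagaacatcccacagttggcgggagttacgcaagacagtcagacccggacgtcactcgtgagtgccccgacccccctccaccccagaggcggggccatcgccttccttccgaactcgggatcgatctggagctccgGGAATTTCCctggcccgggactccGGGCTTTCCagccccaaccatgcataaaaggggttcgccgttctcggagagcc
CXCL3: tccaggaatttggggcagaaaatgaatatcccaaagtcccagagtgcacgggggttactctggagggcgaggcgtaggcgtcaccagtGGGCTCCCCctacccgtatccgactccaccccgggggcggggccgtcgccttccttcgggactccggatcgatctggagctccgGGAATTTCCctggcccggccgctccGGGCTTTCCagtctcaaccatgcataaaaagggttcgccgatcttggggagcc
IL1B: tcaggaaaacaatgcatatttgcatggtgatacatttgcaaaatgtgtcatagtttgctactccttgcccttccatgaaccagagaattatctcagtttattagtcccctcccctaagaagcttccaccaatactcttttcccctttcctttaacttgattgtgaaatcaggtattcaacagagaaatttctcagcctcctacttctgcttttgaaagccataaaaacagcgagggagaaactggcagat

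The letters ggaatttcc stood 91 to 83 bases before the start of CXCL8, 78 to 70 before CXCL1 and CXCL3, and 77 to 69 before CXCL2. A further match, gggctttcc, stood 53 to 45 bases before the start of CXCL1, CXCL2 and CXCL3. An NF-kB match was present in 6 of the 8 promoters (CXCL8, CXCL1, CXCL2, CXCL3, TNF and IL6) and in 27.8% of 27305 RefSeq promoters of the same length. The AP-1 letters were in 1 of the 8, that of CXCL8, against 6.57% of all promoters. TATAAA was in 3 of the 8 (CXCL8, CCL3 and TNF), against 11.2%. The EGR letters GCGTGGGCG, also searched on both strands, were in 0 of the 8, against 0.714%. The promoters of CXCL1, CXCL2 and CXCL3 were 83.3% to 86.4% identical to each other. These matches describe letters in this window only, and no binding was measured.

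Library totals ran from 27285773 to 54056289 estimated reads, and 3 reads corresponded to 0.0563 to 0.111 CPM (counts scaled to a common library size) before further scaling. The floor of detection was set at a mean of 3 reads. All other CPM are also scaled by TMM factors, which correct for differences in library composition. Of 80 pairs of a gene and a time point, 4 were at the floor: CCL3 at 0 h, IL1B at 0 h, and TNF at 0 and 0.5 h. No gene was at it throughout, although TNF had only 1 to 18 reads in every library. All 8 erythroid and leukaemia markers of K562 averaged at least 1 CPM over the 16 libraries, and CDKN2A, deleted in K562, had 0 reads in all 16 libraries. PTPRC, listed beside it as low in K562, was at 102 to 261 CPM. Of 13 megakaryocyte markers 6 did, and the list's summed level was 146 to 200 CPM at 0 h and 5365 to 6104 CPM at 72 h, largely from THBS1 and ITGB3. The list did not rise as a whole. From 0 to 72 h TUBB1 also rose, from 2.41 and 2.37 CPM to 15.8 and 14.4. NFE2 fell from 77.5 and 97.3 CPM to 49.5 and 54.9, after 1.68 and 1.98 at 6 h. The levels of ITGA2B at 0 h (51.7 and 61.7 CPM) and 72 h (58.3 and 63.1) overlapped. GP1BB differed widely between libraries, at 9.20 and 33.7 CPM at 0 h and 0 and 57.2 at 72 h. The platelet genes GP9, PF4 and GP1BA stayed near 0.

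The 4 CXC chemokines rose first, the CC chemokines and LIF later, and IL1B last. The 10 genes were compared with 0 h at 7 time points in a single model over all 16 libraries, and these comparisons share the 0 h libraries. In this bulk RNA, a change in the number of cells expressing a gene and a change in its RNA per cell cannot be told apart. At 0.5 h, CXCL8 alone was called higher (edgeR adjusted p under 0.05), where 0.175% of all genes tested were higher. At 1.5 h the 4 CXC genes were higher and none lower, against 9.39% of all genes higher. At 3 h, 9 of 10 were higher, all but IL1B, against 21.8%. At 6 h, 8 were higher, all but TNF and IL1B, against 28.0%.

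Later the group split. At 24 h, 7 of 10 genes were higher and 2 lower, CXCL2 and CXCL3, where 32.0% of all genes were higher and 27.2% lower. At 48 h and again at 72 h, 8 were higher and the same 2 lower, against 30.4% higher and 24.6% lower at 48 h and 31.9% and 27.4% at 72 h. The median log2 difference from 0 h over the 10 genes climbed from 0.30 at 0.5 h through 1.14 at 1.5 h and 3.26 at 3 h to 5.53 at 6 h. It then came down to 2.81 at 24 h, with 2.44 by 48 h and 2.47 by 72 h. The median of all genes tested was between -0.034 and 0 at these times. TMM scaling holds that median near 0, so it is not an independent background. Both libraries of CXCL1, CCL3, TNF, IL1B and LIF at 0 h held under 10 reads, so these 5 passed the filter on low counts through later time points, and counts and medians over the group are descriptions. All 10 differed among the 8 time points, against 84.2% of all genes tested.

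**Figure D1:**
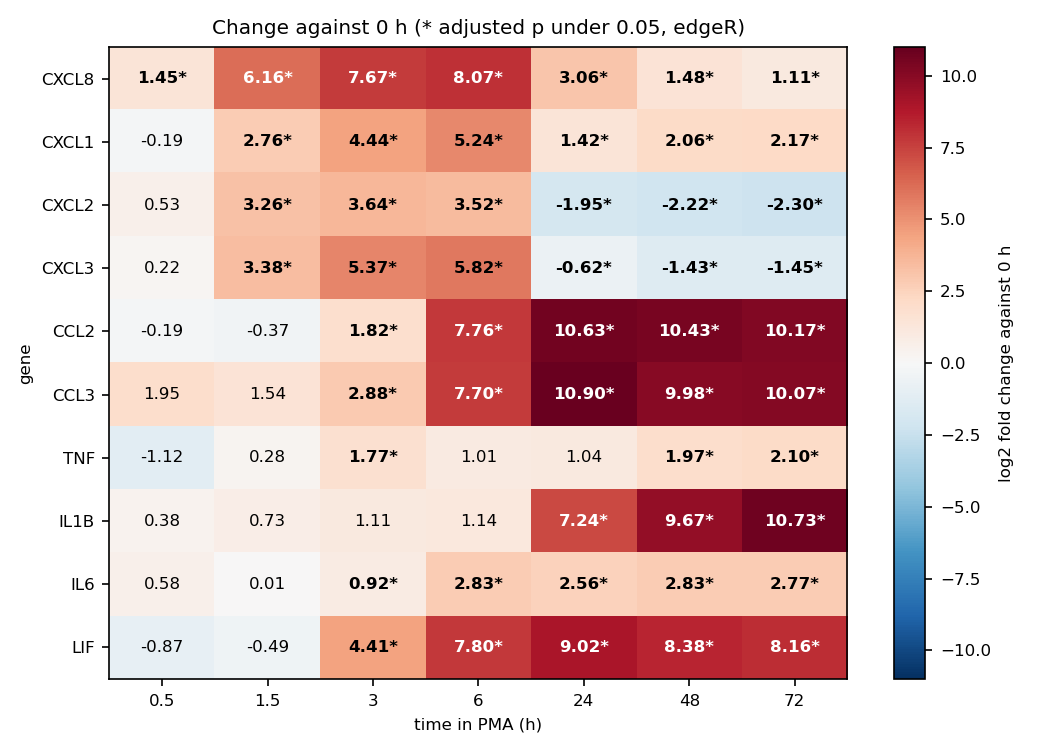
The log2 difference from 0 h of each of the 10 genes (rows) at the 7 later time points (columns), with colour and number giving the fitted value and marks giving the call at an adjusted p under 0.05. The 4 CXC genes lead at 1.5 h, and CCL2, CCL3, LIF and IL1B hold the highest values at 72 h.

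CXCL8, encoding interleukin-8, a neutrophil attractant, rose from a low level to one of the highest in the group. It had fallen steeply by 24 h but stayed above its 0 h level. Its gene (ENSG00000169429.10) spans chr4:73740506-73743716 on the plus strand in GENCODE 29 (GRCh38). In replicates 1 and 2 it stood at 5.97 and 4.64 CPM at 0 h, 13.2 and 16.01 at 0.5 h, 365 and 396 at 1.5 h, then 1116 and 1057 at 3 h. It then stood at 1438 and 1430 CPM at 6 h, 42.6 and 46.1 at 24 h, 14.9 and 14.8 at 48 h, then 13.02 and 9.89 at 72 h. Both libraries of every later time lay above both 0 h libraries, and the 0.5 h and 48 h levels overlapped each other.

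The log2 difference of CXCL8 from 0 h was 1.45 (SE 0.15, edgeR adjusted p = 0.000375) at 0.5 h, a 2.74-fold rise. At 1.5 h it was 6.16 (SE 0.17), at 3 h 7.67 (SE 0.18) and at 6 h 8.07 (SE 0.18), a 270-fold rise with an adjusted p of 1.68e-13. From 6 to 24 h it fell by 5.01 (SE 0.15), a 32.3-fold drop, and from 24 to 48 h by 1.58 (SE 0.14). It was still 3.06 (SE 0.15) above 0 h at 24 h and 1.11 (SE 0.15) at 72 h, when its level was 0.799% of its peak. The call at 0.5 h was lost when only the 0 and 0.5 h libraries were fitted, with a value of 1.47. The step from 3 to 6 h (0.40) lost its call whichever of the 4 libraries of those times was left out, with values between 0.36 and 0.46.

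CXCL3, another neutrophil attractant, followed CXCL8 in time but ended below its starting level. It lies at chr4:74036589-74038807 on the minus strand. It stood at 11.7 and 10.3 CPM at 0 h, 13.1 and 12.5 at 0.5 h, 112 and 116 at 1.5 h, 477 and 433 at 3 h, then 604 and 636 at 6 h. By 24 h it was at 6.97 and 7.33 CPM, by 48 h at 3.71 and 4.41, and at 72 h at 4.02 and 4.01. No library from 24 h on reached the lower 0 h library. The log2 difference from 0 h was 3.38 (SE 0.11) at 1.5 h and 5.82 (SE 0.12, edgeR adjusted p = 8.02e-14) at 6 h. It was -0.62 (SE 0.11) at 24 h and -1.45 (SE 0.12) at 72 h. The fall from 6 to 24 h was 86.5-fold, and that from 24 to 48 h was 1.76-fold.

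CXCL2 had a flatter top and also ended low. It lies at chr4:74097035-74099293 on the minus strand, next to CXCL3. It stood at 11.1 and 12.7 CPM at 0 h, 16.5 and 18.0 at 0.5 h, 108 and 120 at 1.5 h, 147 and 149 at 3 h, then 129 and 144 at 6 h. It stood at 2.98 and 3.14 CPM at 24 h, 2.48 and 2.60 at 48 h, then 2.68 and 2.14 at 72 h. Its highest mean was at 3 h, 148 ± 1.27 CPM (SD, n = 2), and the 6 h libraries lay just below. The log2 difference from 0 h was 3.26 (SE 0.11) at 1.5 h, 3.64 (SE 0.12, edgeR adjusted p = 1.17e-11) at 3 h and -2.30 (SE 0.13, adjusted p = 1.95e-09) at 72 h. From 6 to 24 h it fell by 5.47 (SE 0.13), a 44.4-fold drop. Between 1.5 and 3 h it rose by 0.37 (SE 0.10), a call that was lost without replicate 1 of 1.5 h (0.30) and without replicate 1 of 3 h (0.365). It was also lost, at 0.19, when libraries were scaled to total counts.

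CXCL1, a close relative of CXCL2 and CXCL3, rose at the same times but at a far lower level. It lies at chr4:73869393-73871242 on the plus strand. It stood at 0.151 and 0.221 CPM at 0 h (5 and 7 reads), 0.130 and 0.197 at 0.5 h, 1.13 and 1.43 at 1.5 h, 4.04 and 4.17 at 3 h, then 6.74 and 7.57 at 6 h. It stood at 0.444 and 0.550 CPM at 24 h, 0.807 and 0.766 at 48 h, then 1.07 and 0.612 at 72 h. Unlike CXCL2 and CXCL3, its libraries from 24 h on all lay above those of 0 h. The log2 difference from 0 h was 5.24 (SE 0.32, edgeR adjusted p = 3.75e-09) at 6 h, with a ratio of summed reads of 38.9 (exact 95% interval 22.0 to 75.9). At 24 h it was 1.42 (SE 0.40), a call lost with 1.18 without replicate 1 of 0 h and with 1.22 without replicate 2 of 24 h. At 72 h it was 2.17 (SE 0.37). The step from 3 to 6 h, 0.80 (SE 0.22), lost its call with 0.74 without replicate 2 of 6 h and with 0.705 from TPM-derived counts. The coding sequences of CXCL1, CXCL2 and CXCL3 are 90.7% to 94.4% identical, so the split of reads among these genes carries some uncertainty.

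**Figure D2:**
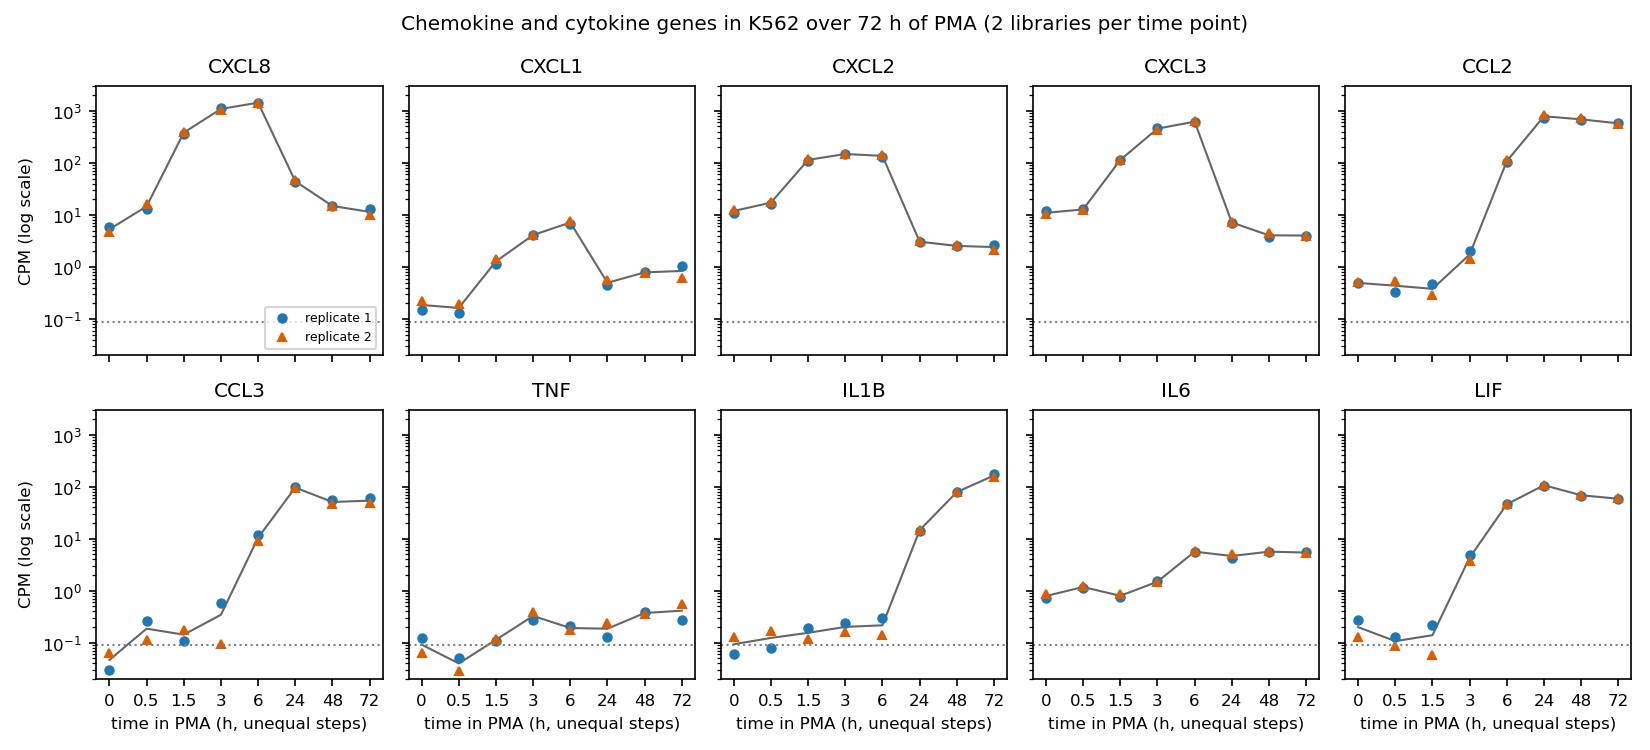
TMM-scaled CPM of each of the 10 genes on a log axis against time in PMA, with 1 point for each of the 2 libraries, a line through the means and a dotted line at the level of 3 reads. The CXC genes crest at 3 to 6 h and are low from 24 h, whereas CCL2, CCL3, LIF and IL1B are high from 24 h on.

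Other genes of the same stretch of chromosome 4 were barely detected. CXCL6, PF4V1, PF4 and CXCL5, which lie between CXCL8 and CXCL3, had at most 3 reads in any library. PPBP, the precursor of a platelet chemokine, had at most 23.

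CCL2, the monocyte attractant MCP-1, was almost absent until 3 h and was the most abundant mRNA of the group from 24 h on. It lies at chr17:34255218-34257203 on the plus strand (ENSG00000108691.9). It stood at 0.483 and 0.506 CPM at 0 h, 0.337 and 0.536 at 0.5 h, 0.468 and 0.292 at 1.5 h, then 2.02 and 1.44 at 3 h. It then stood at 104 and 112 CPM at 6 h, 728 and 845 at 24 h, 656 and 717 at 48 h, then 593 and 556 at 72 h. The first 3 time points overlapped in part, and every library from 6 h on lay far above them.

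The log2 difference of CCL2 from 0 h was 1.82 (SE 0.27, edgeR adjusted p = 6.83e-05) at 3 h, 7.76 (SE 0.20) at 6 h and 10.63 (SE 0.21, adjusted p = 4.65e-14) at 24 h. The ratio of summed reads at 24 h was 1618 (exact 95% interval 1146 to 2366). Its largest step was that from 3 to 6 h, 5.95 (SE 0.17). The step from 6 to 24 h was a further 2.86 (SE 0.13). CCL2 was not called between 24 and 48 h, and at 72 h its mean was 73.0% of its peak.

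CCL3, encoding MIP-1α, rose with CCL2 at 6 to 24 h at a lower level. It lies at chr17:36088256-36090169 on the minus strand. Its reads were 1 and 2 at 0 h, 10 and 4 at 0.5 h, 4 and 6 at 1.5 h, then 22 and 3 at 3 h. It stood at 11.8 and 9.03 CPM at 6 h, 97.0 and 94.4 at 24 h, 55.3 and 45.7 at 48 h, then 59.9 and 47.3 at 72 h. The 3 h libraries lay far apart, at 0.592 and 0.0962 CPM, and all libraries from 6 h on lay above both.

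The ratio of summed CCL3 reads to 0 h, which had 3 reads in all, was 2061 at 24 h (exact 95% interval 705 to 9994) and 1166 at 72 h (399 to 5656). The fitted log2 difference at 24 h was 10.90 (SE 0.43, edgeR adjusted p = 3.29e-11). At 3 h the ratio was 7.90 (2.41 to 40.9) and the fitted difference 2.88 (SE 0.96, adjusted p = 0.0212), a call that rests on replicate 1. Without that library the difference was 1.00 and not called, and it also lost its call without either 0 h library, with 2.46 and 3.44. CCL3 rose by 4.82 (SE 0.35) from 3 to 6 h, with 6.71 without replicate 1 of 3 h and 4.12 without replicate 2. It fell by 0.92 (SE 0.20) from 24 to 48 h, a call lost with -0.91 without replicate 2 of 24 h and -0.79 without replicate 2 of 48 h.

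Most CCL3 reads were assigned to alternative copies of the gene in the reference. The transcript set held copies from alternative haplotypes, the variant versions of some regions, and these took 94.9% of CCL3 reads. The coding transcript of the primary assembly was at 0 in 14 libraries and had 162 reads in replicate 2 of 24 h and 163 in replicate 2 of 48 h. Restricted to the primary assembly, an analysis chosen after seeing the data, CCL3 was not called at 3 h, between 6 and 24 h (1.68) or between 24 and 48 h. The neighbouring CCL3L1/CCL3L3 has a transcript 96.1% identical to that of CCL3. It went from 0.121 and 0.284 CPM at 0 h to 25.5 and 26.8 at 6 h and 230 and 264 at 24 h. At 48 h, when CCL3 was lower than at 24 h, it stood at 337 and 352 CPM, then at 442 and 457 at 72 h. How reads were divided between CCL3 and this near copy is therefore uncertain. CCL3 also overlaps an antisense gene, AC243829.4, and the strand setting of the quantification is not given in the sources used here.

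**Figure D3:**
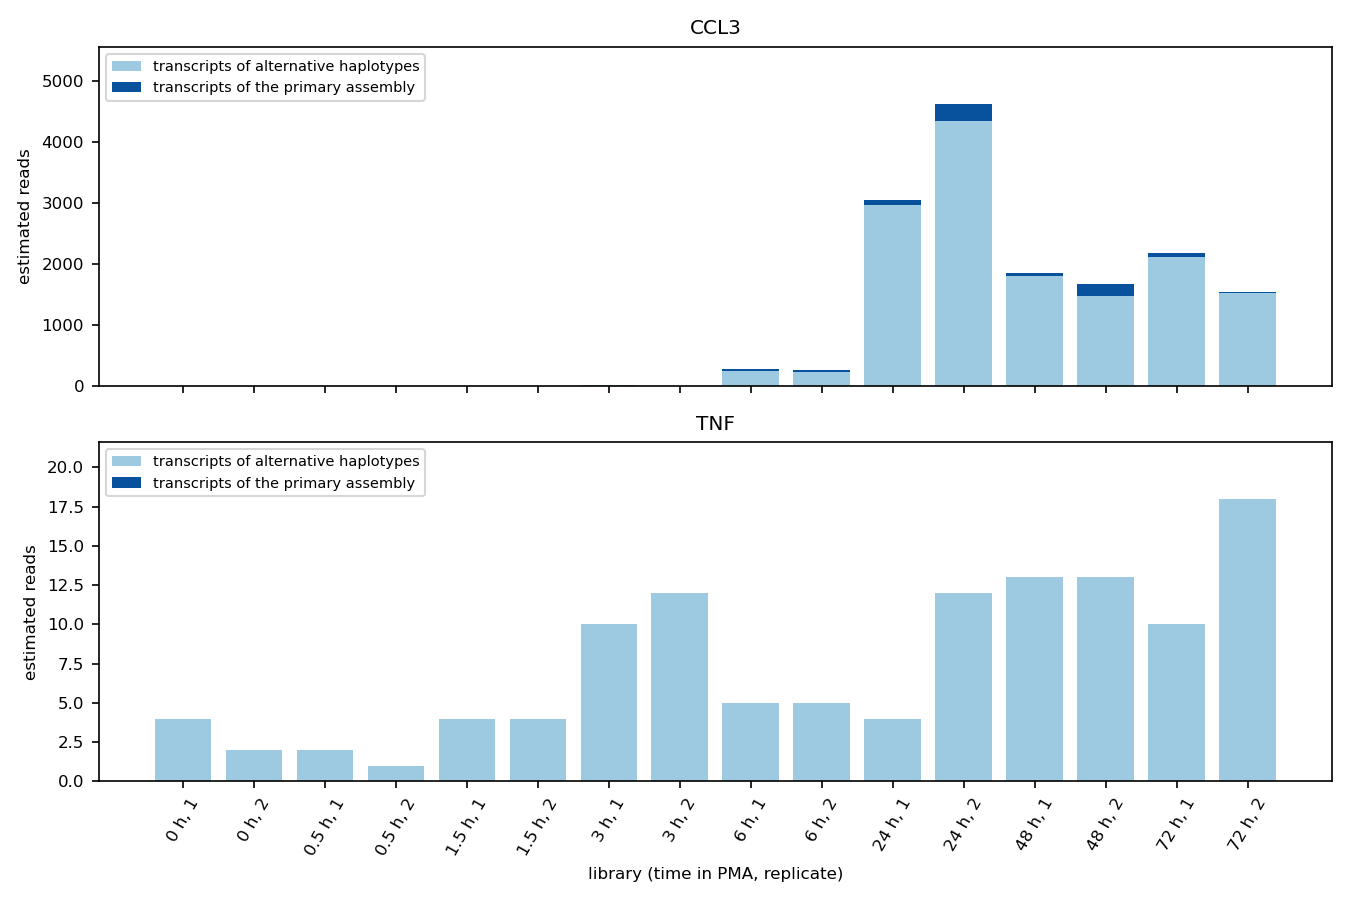
Estimated reads of CCL3 and TNF in each of the 16 libraries, stacked by whether they were assigned to transcripts of the primary assembly or of alternative haplotypes. The haplotype copies hold nearly all CCL3 reads and all TNF reads.

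TNF, the founding cytokine of its family, stayed low throughout, with 1 to 18 reads in every library. It lies at chr6:31575567-31578336 on the plus strand. Its reads in replicates 1 and 2 were 4 and 2 at 0 h, 2 and 1 at 0.5 h, 4 and 4 at 1.5 h, then 10 and 12 at 3 h. They were 5 and 5 at 6 h, 4 and 12 at 24 h, 13 and 13 at 48 h, then 10 and 18 at 72 h. The highest count was 18 reads, in replicate 2 of 72 h, and several time points overlapped.

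TNF was called higher at 3, 48 and 72 h. The log2 difference was 1.77 (SE 0.60, edgeR adjusted p = 0.0258) at 3 h, 1.97 (SE 0.59, adjusted p = 0.0097) at 48 h and 2.099 (SE 0.58, adjusted p = 0.00553) at 72 h. The ratio of summed reads was 3.48 (exact 95% interval 1.37 to 10.5) at 3 h and 4.37 (1.77 to 12.9) at 72 h. All 3 calls were lost without replicate 2 of 0 h, with values of 1.40, 1.60 and 1.73. The call at 3 h was also lost without replicate 2 of 3 h (1.51) and with DESeq2 (1.84). Scaling to total counts (1.50), no low-count filter (1.76) and counts derived from TPM (1.485) lost it too. It held neither at an adjusted p under 0.01 nor against a 1.5-fold change. The call at 48 h was also lost with DESeq2 (2.06), and that at 72 h without replicate 2 of 72 h (1.53). The TNF transcript of the primary assembly had 0 reads in all 16 libraries, and 94.1% of the gene's reads lay on a single haplotype copy of 1676 nt.

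IL1B, encoding the precursor of interleukin-1β, was the last to rise and was still rising at 72 h. It lies at chr2:112829751-112836903 on the minus strand. Its reads were 2 and 4 at 0 h, 3 and 6 at 0.5 h, 7 and 4 at 1.5 h, 9 and 5 at 3 h, then 7 and 4 at 6 h. It then stood at 14.2 and 14.8 CPM at 24 h, 77.7 and 78.8 at 48 h, then 173 and 154 at 72 h. IL1B was called at none of the first 4 later times, and each of the last 3 lay wholly above the one before.

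The log2 difference of IL1B from 0 h was 7.24 (SE 0.25) at 24 h, 9.67 (SE 0.23) at 48 h and 10.73 (SE 0.23, edgeR adjusted p = 6.98e-14) at 72 h. The ratio of summed reads at 72 h was 1772 (exact 95% interval 814 to 4831). Without replicate 2 of 0 h these differences were 7.83, 10.26 and 11.32, and with counts derived from TPM 6.38, 8.79 and 9.86. The steps were 6.09 (SE 0.23) from 6 to 24 h, 2.43 (SE 0.13) from 24 to 48 h and 1.06 (SE 0.12, adjusted p = 0.000446) from 48 to 72 h. IL1B was the only one of the 10 genes called between 48 and 72 h, and it rose, as did 1.36% of all genes. CASP1, whose protease product cleaves the precursor to the active cytokine, had at most 18 reads in any library, with a log2 difference of 2.13 (SE 0.69, adjusted p = 0.0142) at 72 h.

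IL6, encoding interleukin-6, rose modestly and then held its level. It lies at chr7:22725884-22732002 on the plus strand. It stood at 0.724 and 0.853 CPM at 0 h, 1.14 and 1.21 at 0.5 h, 0.743 and 0.847 at 1.5 h, 1.53 and 1.44 at 3 h, then 5.57 and 5.66 at 6 h. It stood at 4.15 and 5.11 CPM at 24 h, 5.47 and 5.75 at 48 h, then 5.41 and 5.39 at 72 h. The 4 later time points lay above all earlier ones. The log2 difference from 0 h was 0.92 (SE 0.21) at 3 h and 2.83 (SE 0.19, edgeR adjusted p = 1.22e-08) at 6 h. At 72 h it was 2.77 (SE 0.19), with a mean 96.2% of the peak. The calls at 3 h against 0 h (0.90) and against 1.5 h (0.86) were lost when only the libraries of the pair were fitted. IL6 overlaps STEAP1B and AC073072.1.

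LIF, encoding leukaemia inhibitory factor, rose between CXCL8 and IL1B in time. It lies at chr22:30240447-30246851 on the minus strand and overlaps LIF-AS1 and AC004264.1. It stood at 0.272 and 0.126 CPM at 0 h (9 and 4 reads), 0.130 and 0.0846 at 0.5 h, 0.220 and 0.0584 at 1.5 h, 4.90 and 3.75 at 3 h, then 45.3 and 45.9 at 6 h. It stood at 104 and 108 CPM at 24 h, 66.5 and 69.7 at 48 h, then 57.6 and 59.1 at 72 h. The 0, 0.5 and 1.5 h libraries overlapped, and those from 3 h on lay above all of them.

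The log2 difference of LIF from 0 h was 4.41 (SE 0.28, edgeR adjusted p = 1.84e-08) at 3 h, 7.80 (SE 0.24) at 6 h and 9.02 (SE 0.24, adjusted p = 4.81e-13) at 24 h. The ratio of summed reads at 24 h was 532 (exact 95% interval 311 to 999). Without replicate 1 of 0 h the differences were 5.07, 8.46 and 9.68, and with counts derived from TPM 3.40, 6.94 and 8.20. LIF rose by 4.90 (SE 0.30) from 1.5 to 3 h, with 6.13 without replicate 1 of 1.5 h and 4.28 without replicate 2. The fall from 24 to 48 h, -0.64 (SE 0.13), lost its call with -0.58 without replicate 2 of 24 h and with -0.61 without replicate 1 of 48 h, as it did with counts derived from TPM (-0.675).

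The steps between neighbouring time points show the change of phase. From 0.5 to 1.5 h the 4 CXC genes rose, where 4.27% of all genes rose. From 1.5 to 3 h, 7 genes rose, the CXC genes with CCL2, IL6 and LIF, against 13.2% of all genes. From 3 to 6 h, 7 rose again, against 19.2%, and these were CXCL8, CXCL1, CXCL3, CCL2, CCL3, IL6 and LIF. From 6 to 24 h the 4 CXC genes fell while CCL2, CCL3, IL1B and LIF rose, where 26.3% of all genes fell and 31.3% rose. From 24 to 48 h, CXCL8, CXCL3, CCL3 and LIF fell and IL1B rose, where 6.40% of all genes fell and 9.34% rose. CCL3L1/CCL3L3, whose split of reads with CCL3 is uncertain, went from 230 and 264 CPM to 337 and 352 in this step.

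On a scale that corrects for transcript length, TPM (transcripts scaled to a fixed total per library), the summed level of the 10 genes was 54.9 at 0 h, 835 at 1.5 h and 1892 at 3 h. It reached 2615 at 6 h and was 2455 by 24 h, with 2309 at 48 h and 2101 by 72 h, and its makeup changed. In CPM, which is not corrected for length, the sum fell from a mean of 2368 at 6 h to 1063 by 24 h, with 875 left at 72 h. Of the summed TPM, CXCL2 made up 50.0% at 0 h, and the shares that follow are of that same TPM sum. CXCL8 made up 53.2% at 1.5 h, 53.5% at 3 h and 49.2% at 6 h, and CXCL3 another 33.2% at 3 h and 31.5% at 6 h. CCL2 went from 9.16% at 6 h to 84.7% at 24 h, 86.8% at 48 h and 80.9% at 72 h. CCL3 reached 9.61% at 24 h and IL1B 8.84% at 72 h. In level, CCL2 at 24 h reached 2079 ± 85.0 TPM (SD, n = 2), CXCL8 at 6 h 1288 TPM and IL1B at 72 h 186 TPM.

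**Figure D4:**
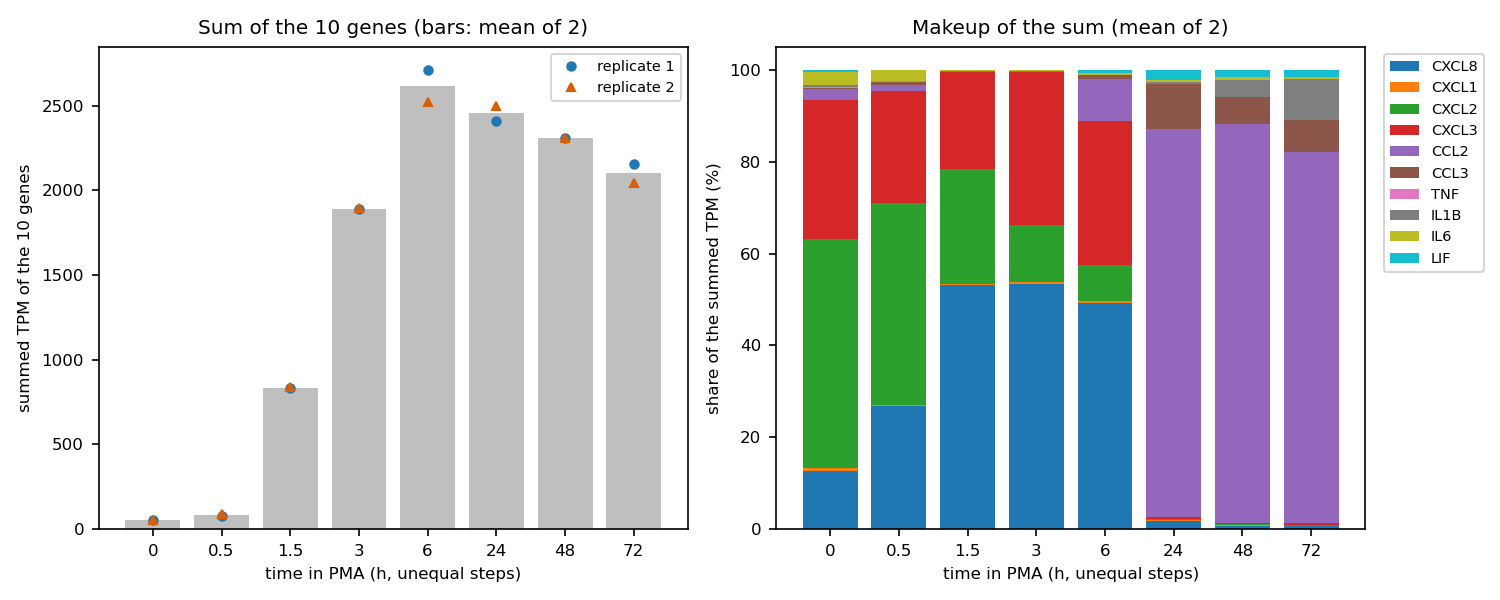
Left, the summed TPM of the 10 genes at each of the 8 time points, with bars at the mean and a point for each of the 2 libraries; right, the share of that sum taken by each gene, as stacked means. CXCL8 and CXCL3 fill most of the bar from 1.5 to 6 h and CCL2 most of it from 24 to 72 h.

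The 3′UTRs were searched for AU-rich letters, since these are a known feature of cytokine mRNAs. The letters ATTTATTTA, 2 overlapping copies of ATTTA, were in the annotated 3′UTR of 6 of the 10 genes: CXCL8, CXCL1, CXCL2, CCL3, TNF and IL1B. They were in 6.83% of 19063 genes. ATTTA itself was in all 10, against 66.9%. Its density was 2.19 to 13.99 per kb in these genes, against a median of 1.47. The windows of 30 bases with the most copies are shown for 2 of these genes, with ATTTA in capitals. That of CXCL2, which rose and fell, is at chr4:74097590-74097619 (-). That of TNF, which stayed low throughout, is at chr6:31577999-31578028 (+).
CXCL2: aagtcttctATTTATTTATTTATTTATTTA
TNF: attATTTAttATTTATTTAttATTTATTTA

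Each of these windows held 5 copies of ATTTA. CXCL3, without the longer motif, held 7 copies of ATTTA, or 10.4 per kb. No decay of mRNA was measured.

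Among receptors of these cytokines, those for interleukin-6, LIF, TNF and interleukin-1 rose. The receptor list was chosen with earlier results of these data known, and 12 of its 17 genes had enough reads to be tested. At 6 h, 6 of 12 were higher and 1 lower, and at 72 h 8 were higher and none lower. Of all genes tested, 28.0% were higher and 29.8% lower at 6 h, and 31.9% and 27.4% at 72 h. The receptors tested had a median log2 difference of 1.46 at 72 h. CCR1, without reads at 0 h, passed the filter through later times and could not be called lower. Counts and the median over this list are therefore descriptions. The genes named next were chosen after their values were seen. IL6R, the interleukin-6 receptor, went from 2.50 and 3.41 CPM at 0 h to 99.6 and 102 at 6 h, a log2 difference of 5.09 (SE 0.17, edgeR adjusted p = 6.76e-12). IL6ST, its signalling partner, went from 18.2 and 10.1 CPM to 400 and 442, a difference of 4.89 (SE 0.23), after 1.26 (SE 0.21) at 1.5 h. LIFR, which pairs with it for LIF, went from 15.4 and 9.38 CPM to 45.1 and 40.7, a difference of 1.79 (SE 0.19).

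Receptors of TNF and interleukin-1 were also called. TNFRSF1A differed by 1.095 (SE 0.11) at 6 h and TNFRSF1B by 2.19 (SE 0.13) at 72 h. IL1R1, the receptor for interleukin-1, went from 1.60 and 1.011 CPM to 11.2 and 12.6 at 6 h, a difference of 3.18 (SE 0.26), and its partner IL1RAP was not called at any time. Chemokine receptors were scarce. CXCR1 had at most 2 reads in any library and CCR2 at most 1, both under the filter. CXCR2 had 5 to 25 reads and was called at no time. CCR1 had 0 reads in both 0 h libraries and 15 and 25 at 72 h, at least 6.34-fold higher when compared with a floor of 3 reads in each 0 h library. ACKR1, a chemokine-binding receptor of erythroid cells, went from 9 and 8 reads at 0 h to 0 and 0 at 24 h and was back at 9 and 21 at 72 h, when it was not called.

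**Figure D5:**
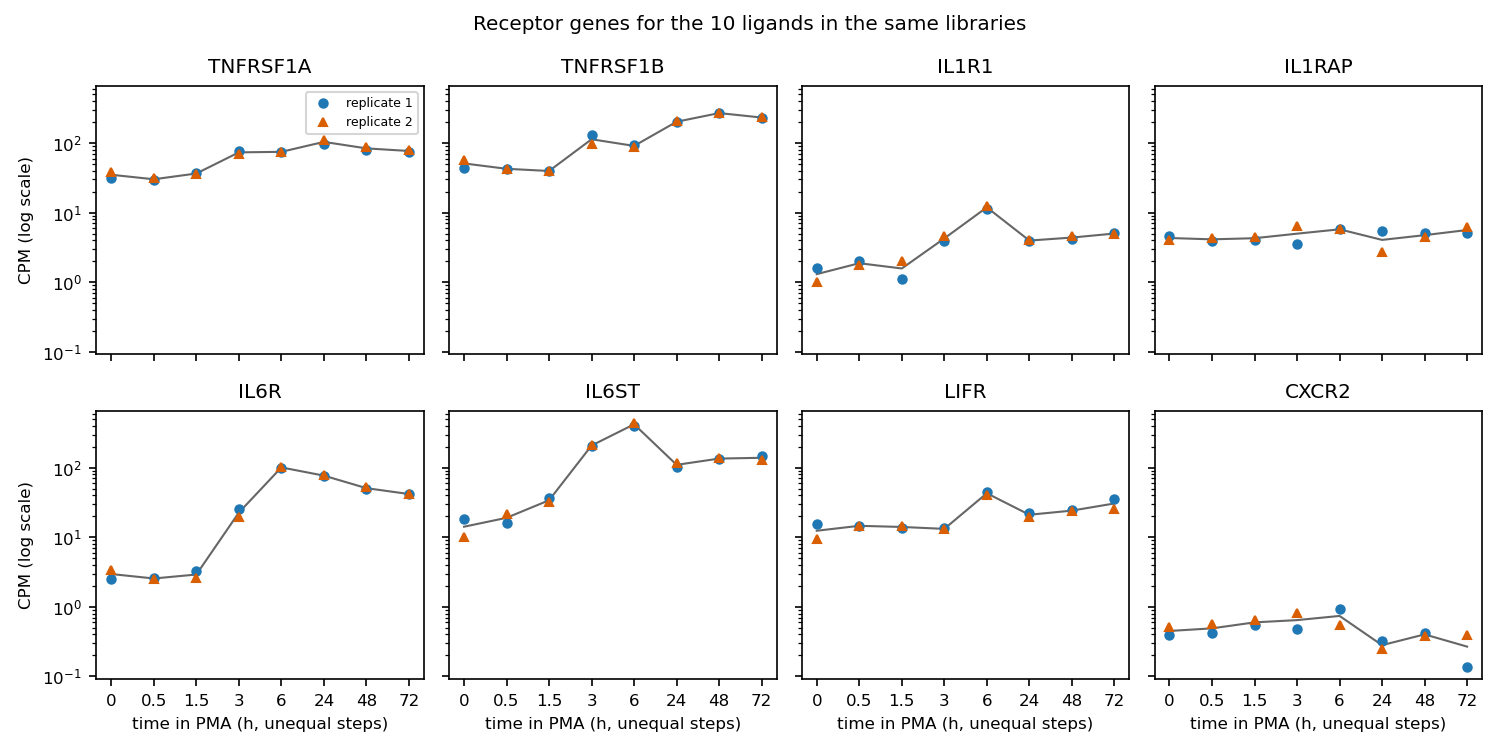
TMM-scaled CPM of receptor genes for these cytokines against time in PMA on a log axis, with a point for each of the 2 libraries. IL6R and IL6ST are both highest at 6 h, IL6ST after a smaller rise by 1.5 h.

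The remaining chemokines were mostly low. Of 14 other CXC and CX3C chemokines 5 could be tested, and at 72 h 2 were higher, PPBP and CXCL16, and 1 lower, CXCL11. With 31.9% of all genes higher and 27.4% lower at that time, these shares are near those of all genes. CXCL16, a membrane-bound chemokine, went from 2.65 and 2.78 CPM to 3.94 and 6.61, a log2 difference of 0.95 (SE 0.32). CXCL11 differed by 0.78 (SE 0.27, edgeR adjusted p = 0.0295) at 3 h, when it was higher, and by -2.35 (SE 0.34) at 24 h. Of 22 other CC and XC chemokines 14 could be tested, and 6 were higher and none lower at 6 h, and 9 and none at 72 h. Of all genes tested, 28.0% were higher and 29.8% lower at 6 h, and 31.9% and 27.4% at 72 h. Genes such as CCL4 and CCL4L2, without reads at 0 h, passed the filter through later times and could not be called lower. Counts over this list are therefore descriptions. CCL4, which encodes MIP-1β, had 0 reads in both 0 h libraries and stood at 17.3 and 15.7 CPM at 6 h, which is at least 178-fold higher by the same floor. Its near copy CCL4L2 also started at 0 reads and stood at 94.3 and 76.1 CPM at 72 h, which is at least 920-fold higher. CCL4 itself stood at 18.5 and 21.3 CPM at 24 h and at 5.69 and 4.68 at 72 h. All CCL4L2 reads and 32.0% of CCL4 reads lay on haplotype copies. At 48 h the primary-assembly transcripts of CCL4 held 156 reads in replicate 1 and 3.5 in replicate 2. How reads were divided between CCL4 and CCL4L2 is uncertain, as for CCL3.

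Among 41 other inflammatory cytokines 29 could be tested. At 6 h 15 were higher and 3 lower, and at 72 h 20 were higher and 4 lower, with a median log2 difference of 2.81. Over all genes, 28.0% were higher and 29.8% lower at 6 h, and 31.9% and 27.4% at 72 h. A gene without reads at 0 h, such as IL19, passed the filter through later times and could not be called lower. Counts and the median over this list are therefore descriptions. TNFSF15, a relative of TNF, went from 3.62 and 4.23 CPM at 0 h to 282 and 252 at 72 h, a difference of 6.09 (SE 0.12, edgeR adjusted p = 4.38e-14). IL19, of the interleukin-10 family, had 0 reads at 0 h and 16.4 and 12.6 CPM at 72 h, which is at least 156-fold higher by the same floor. IL23A, encoding a subunit of interleukin-23, fell from 13.4 and 13.3 CPM to 1.76 and 1.63 at 6 h, a difference of -2.97 (SE 0.14).

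Among 39 genes for signalling, processing and decay of these cytokines, 38 could be tested. At 6 h 19 were higher and 8 lower, and at 72 h 17 were higher and 9 lower, with a median of 0.14. The shares of all genes were 28.0% higher and 29.8% lower at 6 h, and 31.9% and 27.4% at 72 h. The share of the list that was lower at 72 h is near that of all genes. ZFP36L1, whose protein binds AU-rich elements, went from 46.4 and 51.2 CPM at 0 h to 792 and 955 at 6 h, a log2 difference of 4.16 (SE 0.16). PYCARD, an adaptor of the inflammasome that activates CASP1, went from 9.23 and 14.2 CPM to 1.30 and 1.007, a difference of -3.35 (SE 0.24). KHSRP, another AU-binding protein and the most abundant gene of the list, was called at no time. ADAM17, the protease that releases TNF from the membrane, differed by 1.153 (SE 0.09) at 3 h.

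Markers of other cell types were measured beside the late rise of CCL2, CCL3, IL1B and LIF. Of 12 monocyte and macrophage markers 6 averaged at least 1 CPM over all libraries, and their sum was 170 to 203 CPM at 0 h and 235 to 266 at 72 h. CD14 was at 0.082 to 0.577 CPM over all libraries, and FCGR3A and MARCO were at most 0.219 and 0.184. CSF1R of the same list rose from 0.0302 and 0.0948 CPM at 0 h to 6.54 and 7.71 at 72 h. CD68 rose from 56.3 and 76.4 CPM to 154 and 188. LYZ fell from 71.1 and 71.0 CPM at 0 h to 51.9 and 42.5 at 72 h. Between the same times SPI1 fell from 32.6 and 44.1 CPM to 13.3 and 19.0, and FCGR1A from 1.24 and 2.46 to 0.191 and 0.0918. Of 5 fibroblast markers 4 averaged at least 1 CPM, with sums of 10.8 to 12.7 CPM at 0 h and 229 to 248 at 72 h. Those of 4 epithelial markers, all averaging over 1 CPM, were 473 to 566 CPM and 2937 to 3070. In that list KRT8 and KRT18 were higher at 72 h than at 0 h, whereas EPCAM went from 48.5 and 39.8 CPM to 18.8 and 16.2 and CDH1 from 3.83 and 4.30 to 2.02 and 2.39. Of 5 T and B cell markers 2 averaged 1 CPM or more, with sums of 8.57 to 10.9 CPM and 18.2 to 18.5. Their part in the results was not tested.

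The genes most like these in pattern were ranked by Pearson's r of log2 CPM over the 16 libraries, among 3065 genes that averaged 1 CPM or more and ranged over at least 4-fold. The points share time, library and depth, so r is a description. CXCL8 was closest to VMP1 (r = 0.971) and CXCL3 to ACHE (0.970). CCL2 was closest to CD276 (0.998) and CCL3 to LMCD1 (0.991). IL1B was closest to TNFSF15 (0.996), CXCL1 to RHOB (0.986) and CXCL2 to TAF9 (0.967). TNF, with a mean under 1 CPM, was not compared. Within the group, r was 0.956 for CXCL2 and CXCL3, 0.935 for CXCL8 and CXCL3, 0.982 for CCL2 and CCL3, and -0.80 for CXCL2 and IL1B. By rank correlation only 5 of the 27 genes listed as the 3 closest stayed the same.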

How the data were processed

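RNA of 16 libraries was quantified by the authors against Ensembl transcripts. Each deposited table gives an estimated count of reads and a TPM value per transcript, per the file headers. The submitters' processing notes name Trim Galore 0.4.3, Salmon, HISAT2 2.1.0, SAMtools 1.9, R 3.3.1, DESeq2 and the builds hg19 and hg38, with no role for each. The Salmon version and the build behind its index are not given in the sources used here. Estimated counts were summed per gene through GENCODE 29 (GRCh38): 94.1% of transcripts matched by identifier, 4.29% were haplotype copies matched by gene symbol (1.70% to 1.93% of reads), and the rest, with 1.26% to 1.90% of reads, matched no gene and were left out of library sizes. Sums were rounded to whole numbers.

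A quasi-likelihood model in edgeR 4.0.16 (R 4.3.3) over all 16 libraries, with TMM factors of 0.856 to 1.14, the default expression filter and Benjamini-Hochberg adjustment over 17696 genes, gave 13 contrasts: 7 with 0 h and 6 between neighbouring times. A call is an adjusted p under 0.05, two-sided. The residual degrees of freedom were 8 and the common biological coefficient of variation 0.115. An exact permutation of 2 against 2 libraries cannot go below p = 0.333 and was not used. Intervals of read ratios are exact 95% intervals and cover counting error only, as does the floor of 3 reads, since the reads carry no molecular identifiers. The scripts were tested on simulated data.

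The genes, lists and tests were chosen with earlier results of these data known. From each list the most abundant gene and those with the largest called rise and fall were named, and for likeness the 3 closest genes were ranked and the closest printed, some of which are not reported here. Alternatives changed the scaling, filter, count model, threshold and time points fitted, left out each library in turn, removed each library's GC trend, and, added after seeing the data, used primary-assembly transcripts only.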

Additional observations from a re-analysis of the deposited data

How the results depend on the processing

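For the 83 called changes of the 10 genes, 1369 values were computed under other settings. Of these 1318 kept direction and call, 51 lost the call, in 17 of the changes, and none reversed. At 0.5 h the count of genes called, 1, became 2 (CXCL8 and CXCL2) with no low-count filter, with the GC trend of each library removed (with or without the replicate block) and with DESeq2, and 0 when only the 2 time points were fitted. It ran from 1 to 2 on leaving out single libraries. Requiring at least 10 counts in every library left 5 of the 10 genes. It gave 5 calls at 3, 6, 24, 48 and 72 h and 5 genes changed at any time. Among the steps it gave 4 calls between 3 and 6 h, 4 between 6 and 24 h, 2 in the step from 24 to 48 h and 0 in that from 48 to 72 h. A test against a 1.5-fold change gave 4 from 3 to 6 h and 2 from 24 to 48 h. Leaving out single libraries gave 3 to 5 calls from 24 to 48 h, with 3 without replicate 2 of 24 h, and 7 or 8 at 3 h, 8 or 9 at 24 h, and 9 or 10 at 48 and 72 h. With primary-assembly transcripts only, TNF could not be fitted and 7 genes were called at 3 h and 9 at 72 h.

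Libraries with the same replicate number did not deviate together in a consistent way: over 28 pairs of time points the correlation of their deviations was between -0.105 and 0.188, and over 0.1 in 9. A fit with the replicate block gave the same counts: 1, 4, 9, 8, 9, 10 and 10 against 0 h from 0.5 to 72 h, then 4, 7, 7, 8, 5 and 1 for the steps, and 10 at any time. With the block and the GC trend removed, 2 genes were called from 48 to 72 h, IL1B and CXCL8 (-0.44). TNF at 1 to 18 reads, and CCL3, IL1B, LIF and CXCL1 before they rose, are where depth limits precision.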
